A study of Nothobranchius furzeri with 12 samples.

Results

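Oxidative phosphorylation is the last stage of respiration in the mitochondrion. Complex I takes electrons from NADH and complex II takes them from succinate, both hand them to ubiquinone, complexes III and IV pass them to oxygen while protons are pumped, and complex V uses the returning protons to make ATP. Most subunits are encoded in the nucleus, translated in the cytosol and imported, and dedicated assembly factors build each complex without staying in it. Photoreceptors have a very high demand for ATP and pack mitochondria into their inner segments, and the retinal pigment epithelium (RPE) beneath them also respires strongly. The genes described here are the entries of the deposited count table whose name begins with nduf, sdha, sdhb, sdhc, sdhd, uqcr, cox4, cox5, cox6, cox7, cox8 or atp5 and whose counts over the 12 libraries add up to at least 120. There were 61 such genes among 25122 entries.

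RNA of retina with the RPE still attached was sequenced from 12 male turquoise killifish (Nothobranchius furzeri), a small African fish with a very short life, with 3 fish at 1.5 months of age, 3 at 3.0 months, 3 at 4.5 months and 3 at 6.0 months. The labels call each fish a biological replicate, and the comparison asks how the tissue differs with age. All fish, the youngest included, were untreated and came from a mutant line backcrossed onto the inbred GRZ strain; the labels name neither the mutated gene nor which fish carried it, so genotype and age cannot be told apart. At 4.5 months the library names of replicates 2 and 3 include Resub, a word with no explanation in the labels. Each library held 34437141 to 50268318 counts. Levels below are CPM, a gene's counts relative to all counts of its library, with library sizes scaled by edgeR's TMM factors, shown in the order replicate 1, 2 and 3 of each age, and changes are log2 changes ± SE.

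The tissue's own markers were present in every library. The rod gene gnat1 lay between 1350 and 4970 CPM, the cone gene gnat2 between 1850 and 4390 CPM, the photoreceptor factor crx between 492 and 750 CPM and the RPE gene rpe65 between 1570 and 5960 CPM. RNA of neighbouring tissue also differed between libraries: the sum of 11 lens genes ran from 9.91 to 5530 CPM and was highest in replicate 1 at 6.0 months, with 4 of the 11 genes at 0 in some library. At 4.5 months the lens sum was 1235 CPM in replicate 1, and 44.48 and 27.08 CPM in the libraries named Resub. Within that age lens RNA and the word Resub thus cannot be told apart. The sum of 10 corneal and surface epithelium genes ran from 63 to 5170 CPM and was highest in replicate 1 at 1.5 months. The sum of 10 skeletal muscle genes lay between 81.4 and 145 CPM, but single muscle genes varied more. The median of their log2 CPM, centred on each gene's own mean, ran from 1.23 in replicate 1 at 1.5 months to -1.2 in replicate 3 at 4.5 months. Because whole tissue was sequenced, fewer cells of a type and less RNA per cell cannot be told apart in any value below.

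By complex, the 61 genes were 34 subunits of complex I (7 of the catalytic core and 27 accessory), all 4 subunits of complex II, 10 subunits of complex V with its associated factor atp5s, 8 assembly factors of complex I and 4 assembly factors of complex II. No entry carried a name beginning with uqcr, cox4, cox5, cox6, cox7 or cox8, so complexes III and IV had no member under this rule. Their genes were listed by locus number instead. Through the RefSeq gene numbers of the NfurGRZ-RIMD1 annotation, 30 further entries took a name of the same families: 8 of complex III, 16 of complex IV, 2 of complex I, 3 of complex V and cox7a2l. These 30 are described apart and are not counted among the 61. The rule's count minimum excluded nothing: the member with the fewest counts, ndufaf5, had 2327, and no entry with a matching name fell under 120. All 61 members passed the filter on low counts, as did 20717 genes in all.

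The oldest group had lower oxidative phosphorylation RNA than the youngest across nearly all subunits, by a modest amount and with few single genes past the threshold. At 6.0 against 1.5 months, 59 of the 61 members had a log2 change below 0, where 50.6% of all tested genes did, and their median log2 change was -0.37, where that of all tested genes was -0.01. The members moved together: 60 lay below their own mean in replicate 2 at 6.0 months, and 4 in replicate 1 at 4.5 months. Their signs are thus not 61 separate observations. Between fish of 1 age the members' library median, on the log2 scale, had a pooled SD of 0.26. Only sdhaf4 fell and only ndufs1 rose at an adjusted p under 0.05 in edgeR's quasi-likelihood test, and 59 members did not pass. Over all tested genes 1.02% fell and 1.75% rose, 2.78% together, so the share of members called was near the background. At an unadjusted p under 0.05 there were 23 members, where 20.4% of all genes reached it. With plain library totals in place of TMM scaling there were 6 members at that unadjusted level. The share of all genes there with library totals was not computed. DESeq2 on the same counts called 8 members where it called 9.22% of all genes. Of these, ndufs1 was higher, and 7 were lower, among them atp5b, ndufv1, ndufs3, sdhb, sdhaf4 and atp5g3.

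**Figure D1:**
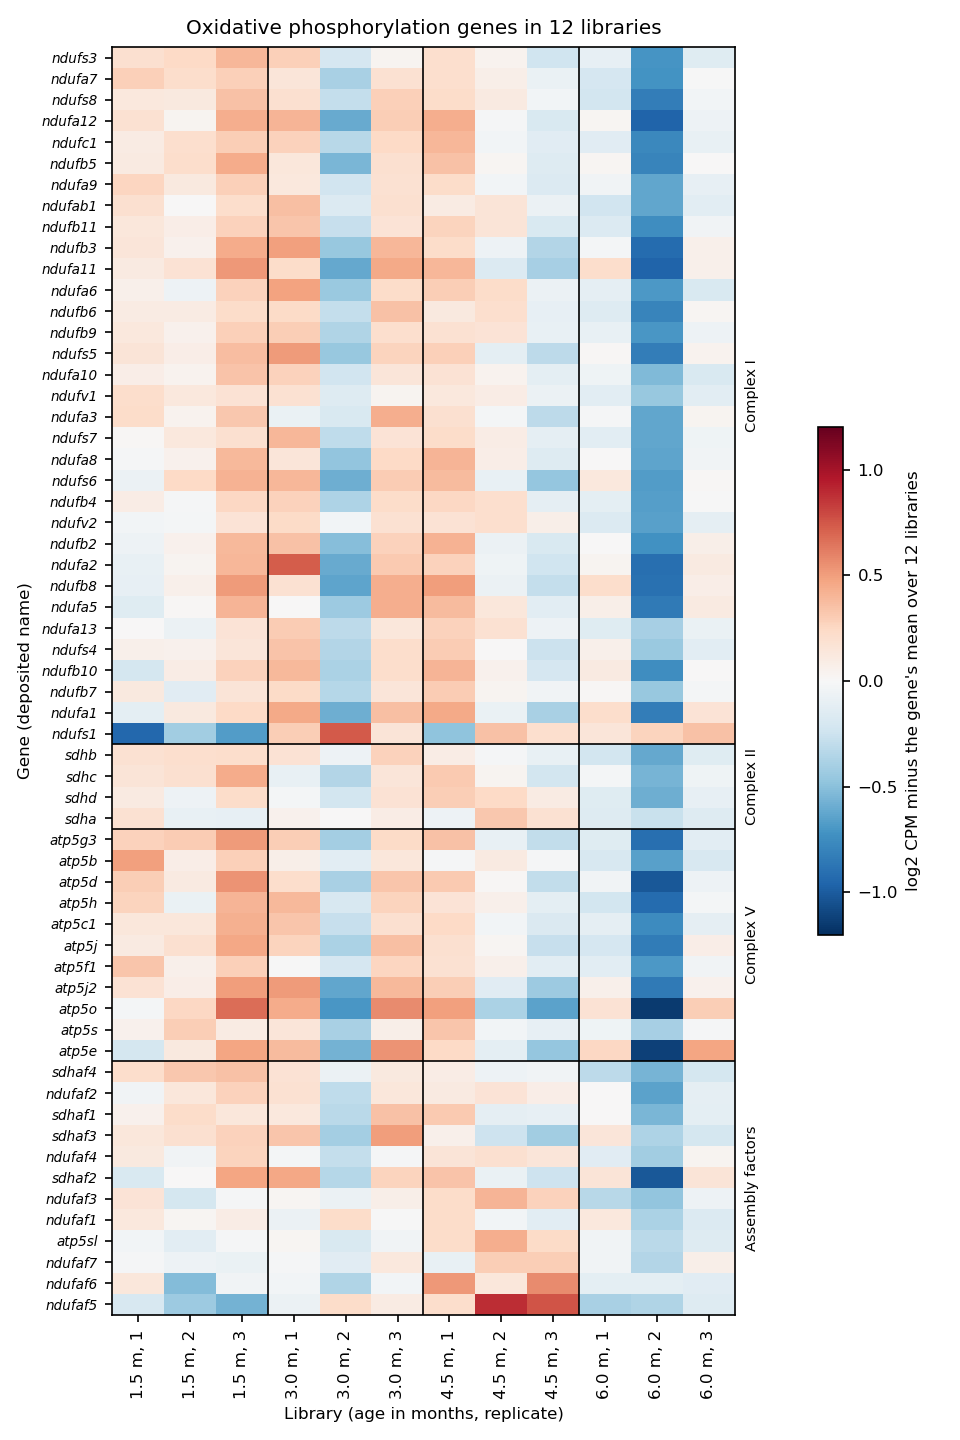
Level of 60 of the 61 genes (rows, grouped by complex and ordered by their change between 6.0 and 1.5 months) in each of the 12 libraries (columns, age in months and replicate), as log2 CPM minus the gene's own mean over the 12 libraries. Replicate 2 at 6.0 months is the bluest column, where 60 of all 61 genes lay below their own mean, and ndufs1 at the foot of complex I runs against the other subunits.

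The groups were also set apart fish by fish. For 34 members every fish at 6.0 months was below every fish at 1.5 months, which held for 14.7% of all tested genes, and for 1 member, ndufs1, every fish was above, which held for 15.9% of all genes. The 34 comprised 20 of 34 subunits of complex I, all 4 of complex II, 8 of the 11 complex V genes and 2 of 12 assembly factors. One fish weighed most on the size of the difference. Replicate 2 at 6.0 months was the lowest of the 12 libraries for 57 of the 61 members, where it was the lowest for 12.3% of all tested genes. Without that fish no member passed in edgeR's test, where 0.328% of all genes did. In that fit 5 members had an unadjusted p under 0.05, and the share of all genes at that unadjusted level was not computed. Of the 61 members 55 were still below 0, and the median of the 61 was -0.20. The other fish of that age, replicates 1 and 3, were both below all 3 youngest fish for 34 members, which held for 21.2% of all genes. Such a count cannot fall when a fish is left out, so it is no check on the weight of replicate 2.

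Summed over the 61 members, the level was 7964, 7339 and 8592 CPM in the fish of 1.5 months. It was 7952, 5684 and 7973 CPM at 3.0 months and 7851, 7101 and 6276 CPM at 4.5 months. At 6.0 months it was 6455, 4263 and 6545 CPM. The 6.0-month sums were all below the 1.5-month sums, while replicate 2 at 3.0 months and replicate 3 at 4.5 months lay below replicates 1 and 3 of the oldest fish, so the middle ages overlapped both ends. As a share of all counts the members made up 0.751% ± 0.0531 (SD, n = 3) at 1.5 months and 0.608% ± 0.114 (SD, n = 3) at 6.0 months.

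**Figure D2:**
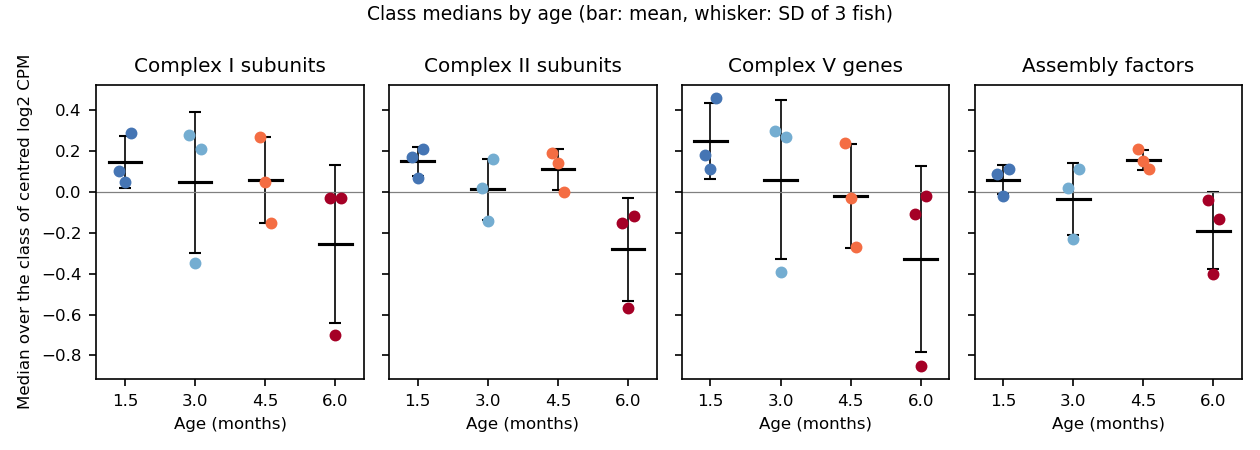
Median over each class of log2 CPM centred on each gene's own mean (y axis) against age in months (x axis), 1 point per fish, with the mean (bar) and SD (whisker) of 3 fish. The genes of complexes I, II and V have their lowest mean at 6.0 months, where 1 fish lies at -0.70, -0.57 and -0.85, and the assembly factors have their highest mean at 4.5 months.

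Other groups of genes moved with the same libraries. The sum of 16 retina markers was lowest in the 3 oldest fish, at 20280, 14920 and 21880 CPM, against 22040 to 29590 CPM at the other ages. The medians of their log2 CPM, centred on each gene's own mean, were -0.17, -0.61 and -0.12 in the oldest fish. Replicate 2 at 3.0 months had -0.15, so by the median the oldest fish were not all the lowest. The minimum of both sum and median fell in replicate 2 at 6.0 months, the library where the members were lowest. The sum of 10 RPE markers was 3377 CPM there, within a range of 2812 to 10250 CPM. The median of their log2 CPM, centred on each gene's own mean, was lowest there, at -1.15. It was -0.95 in replicate 2 at 3.0 months, where the sum was lowest. The sum of the 76 mitochondrial ribosomal protein genes was also lowest in replicate 2 at 6.0 months, at 1549 CPM. That of the 38 proteasome subunit genes was lowest there too, at 1793 CPM, but close to the 1805 CPM of replicate 2 at 3.0 months. The centred medians of the proteasome genes were -0.21 and -0.28 in these libraries, so by the median replicate 2 at 3.0 months was the lower. The 78 cytosolic ribosomal protein genes split the libraries differently: replicate 2 at 3.0 months, replicates 2 and 3 at 4.5 months and replicate 2 at 6.0 months had 18370, 25130, 23810 and 24920 CPM, and all other libraries 39460 to 58470 CPM. Those same 4 libraries were the 4 lowest for 8 members (ndufa11, ndufs5, ndufb2, ndufs6, ndufb3, atp5o, atp5j2 and sdhaf3), where this held for 4.62% of all tested genes. The part of these groups of genes in the members' values was not tested.

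**Figure D3:**
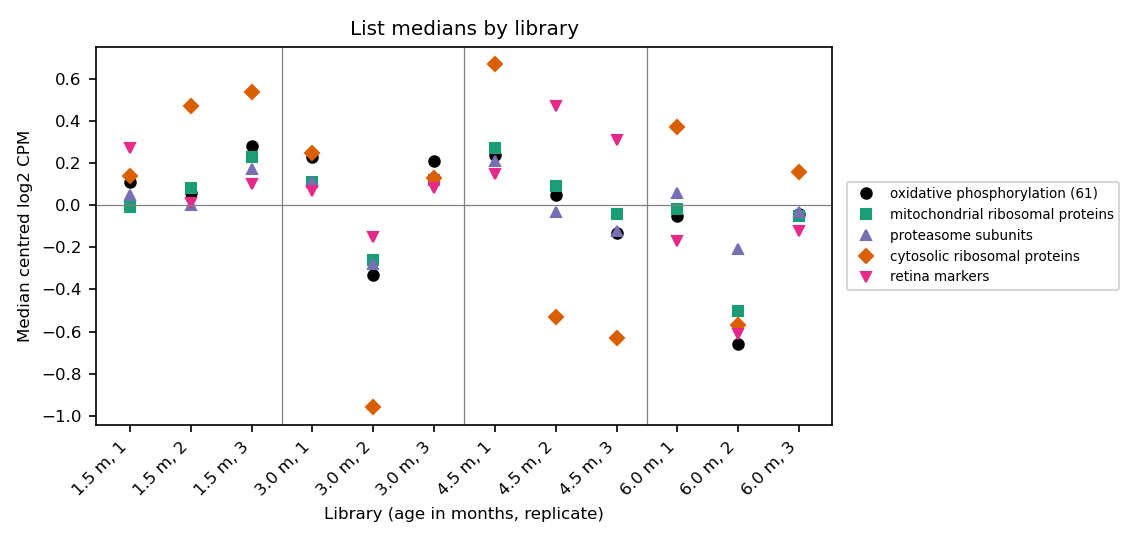
Median of log2 CPM centred on each gene's own mean (y axis) for the 61 genes and 4 other lists in each library (x axis, age in months and replicate). The oxidative phosphorylation genes, black circles, lie at -0.66 in replicate 2 at 6.0 months and at -0.33 in replicate 2 at 3.0 months, near the mitochondrial ribosomal proteins, while the cytosolic ribosomal proteins are low in 4 libraries.

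Complex I, the entry point for electrons from NADH, had a median log2 change of -0.40 from 1.5 to 6.0 months over its 34 subunits, and 33 of them lay below 0. Without replicate 2 at 6.0 months the median was -0.20, with 32 below 0. The 7 core subunits and the 27 accessory subunits had the same median of -0.40, and the accessory subunits kept within a narrow band from -0.53 to -0.17. None of the accessory subunits passed in edgeR's test, and 6 had an unadjusted p under 0.05, where 20.4% of all genes did. DESeq2, which called 9.22% of all genes, called none of them either. Of the core subunits, ndufs1 rose and the other 6 did not pass.

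In the NADH-oxidising module, ndufv1, which carries the flavin that accepts the electrons, stood at 299, 281 and 290 CPM at 1.5 months. It stood at 293, 231 and 264 CPM at 3.0 months and at 281, 274 and 246 CPM at 4.5 months. At 6.0 months it was at 236, 188 and 236 CPM, so the oldest fish lay below all the youngest, with a log2 change of -0.40 ± 0.14 (adjusted p = 0.134, edgeR). Its iron-sulphur neighbour ndufv2 went from 62 ± 4.88 to 49.4 ± 9.58 CPM (mean ± SD, n = 3), a log2 change of -0.33 ± 0.14 that did not pass (adjusted p = 0.22, edgeR).

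The third subunit of that module, ndufs1, the largest of the core and the carrier of several iron-sulphur clusters, ran the other way. It stood at 17.4, 25 and 21 CPM at 1.5 months and at 41.0, 55.4 and 37.2 CPM at 3.0 months. It stood at 23.8, 42.7 and 38.4 CPM at 4.5 months and at 36.9, 40.1 and 42.6 CPM at 6.0 months. The youngest fish were thus the low ones: all 3 lay below every fish of 3.0 and 6.0 months. At 4.5 months only replicate 1, the library without Resub in its name, reached the range of the youngest. The rise from 1.5 to 6.0 months was 0.92 ± 0.22 (adjusted p = 0.0495, edgeR), just past the threshold. Its log2 changes against 1.5 months were 1.08 ± 0.22 at 3.0 months (adjusted p = 0.109, edgeR) and 0.73 ± 0.22 at 4.5 months (adjusted p = 0.0885, edgeR), neither past it. The call at 6.0 months was lost when any library of 1.5 or 6.0 months was left out, with log2 changes of 0.79 to 1.05 and adjusted p of 0.0799 to 0.161 in edgeR. It was also lost without replicate 1 or 3 at 3.0 months or replicate 2 or 3 at 4.5 months (0.92 each, adjusted p 0.056 to 0.0704). Fewer of all genes passed in these fits too, where 2.78% did with all 12 libraries. The share was 0.0379% to 1.25% without a library of 1.5 or 6.0 months. It was 1.5% to 1.78% without the named libraries of 3.0 or 4.5 months.

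The quinone-binding module, where electrons leave complex I, includes ndufs3, ndufs7 and ndufs8. Among these ndufs3 had the most negative change. It stood at 73.3, 75.6 and 84.8 CPM at 1.5 months and 60.1, 39.3 and 58.2 CPM at 6.0 months, a log2 change of -0.57 ± 0.18 (adjusted p = 0.108, edgeR). For all 3 genes the oldest fish lay below the youngest, and none passed in edgeR's test: ndufs8 had -0.53 ± 0.20 and ndufs7 -0.36 ± 0.19. DESeq2 called ndufs3 of the 3, where it called 9.22% of all genes.

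Among the accessory subunits, which surround the core, ndufa7 had the most negative change. It went from 34.8, 33.1 and 34.8 CPM at 1.5 months to 24.9, 17.4 and 28.6 CPM at 6.0 months, with no overlap, a log2 change of -0.53 ± 0.19 (adjusted p = 0.141, edgeR). ndufa9 had -0.46 ± 0.17, ndufab1, the mitochondrial acyl carrier protein, -0.45 ± 0.16, and ndufa10 -0.40 ± 0.17, each without overlap between the groups and none past the threshold. The least negative was ndufa1, at 45.2, 53.2 and 57.7 CPM at 1.5 months and 56.6, 27.5 and 54.7 CPM at 6.0 months, where only replicate 2 was low. Its log2 change was -0.17 ± 0.32, and 0.09 without that fish.

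**Figure D4:**
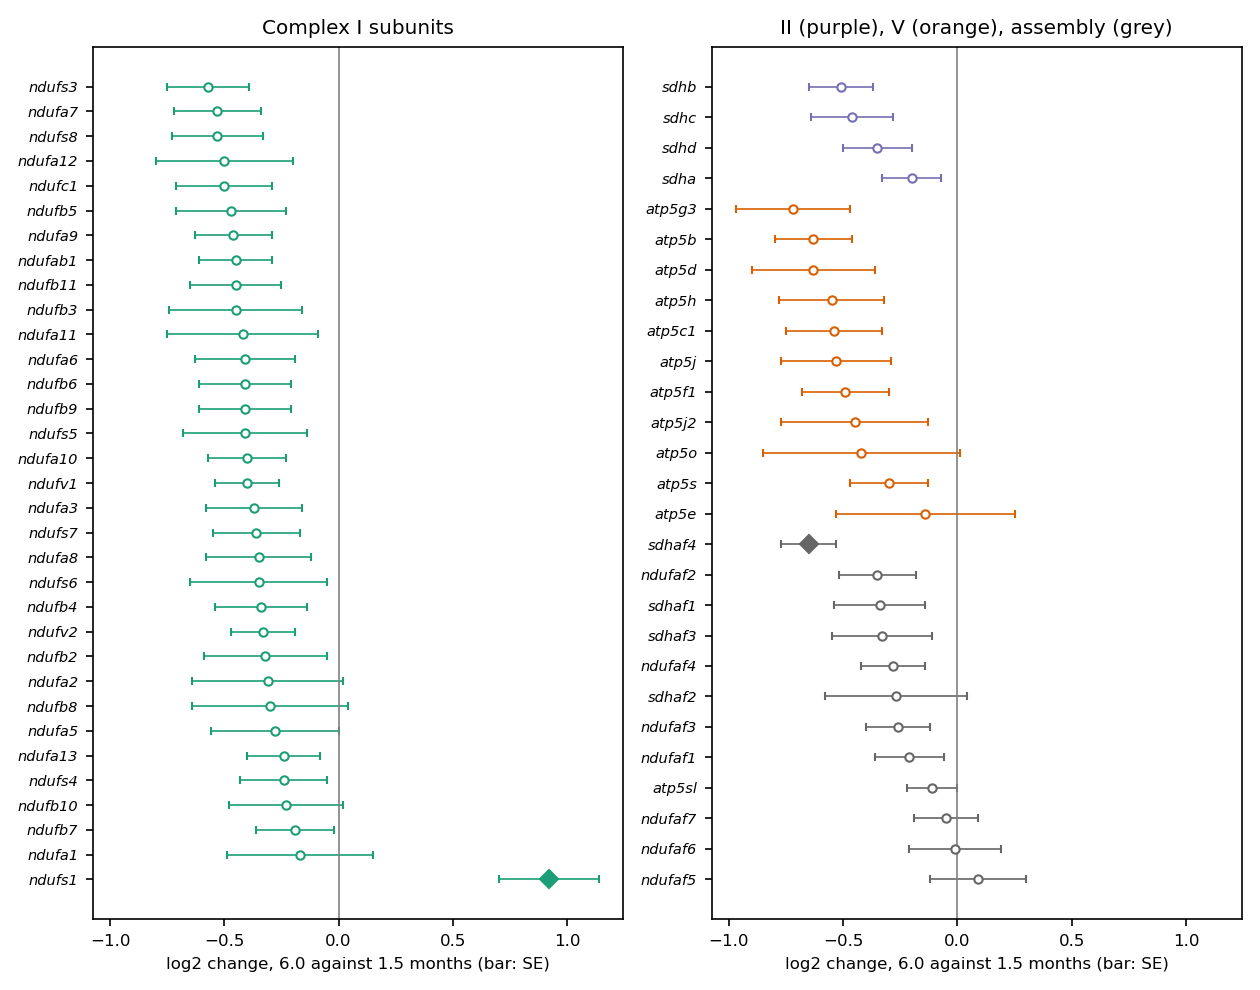
Log2 change from 1.5 to 6.0 months (x axis) of 60 of the 61 genes, with its SE as a bar. Filled diamonds mark the genes past the threshold, ndufs1 at 0.92 and sdhaf4 at -0.65, and open circles mark those that did not pass, of which ndufaf5 at 0.09 is the only one above 0.

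Complex II, succinate dehydrogenase, also a step of the tricarboxylic acid cycle, had a median log2 change of -0.41 over its 4 subunits, and -0.26 without replicate 2 at 6.0 months. In all 4 the oldest fish lay below the youngest. The iron-sulphur subunit sdhb was tight among the youngest fish, at 156, 158 and 159 CPM. It stood at 155, 132 and 166 CPM at 3.0 months, at 146, 136 and 129 CPM at 4.5 months and at 118, 90 and 124 CPM at 6.0 months. The oldest fish were thus below every fish of every other age, with a log2 change against 1.5 months of -0.51 ± 0.14 (adjusted p = 0.0707, edgeR) that did not pass. The flavoprotein sdha, which oxidises succinate, had 351, 291 and 290 CPM at 1.5 months and 278, 257 and 278 CPM at 6.0 months. This was the smallest difference of the 4 subunits, -0.20 ± 0.13, and its highest mean came at 4.5 months, at 298, 387 and 351 CPM. The 387 and 351 CPM were those of the libraries named Resub. Replicate 1 of that age lay below the fish of 3.0 months, at 322, 311 and 329 CPM. The membrane anchors, which hold the quinone site, had -0.46 ± 0.18 (sdhc) and -0.35 ± 0.15 (sdhd). None of the 4 passed in edgeR's test, and 3 had an unadjusted p under 0.05, where 20.4% of all genes did. DESeq2, which called 9.22% of all genes, called sdhb.

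The assembly factors of complex II held the only member that fell. sdhaf4, which in yeast and animals binds the flavin-loaded sdha and helps it join sdhb, stood at 55.4, 59.9 and 61 CPM at 1.5 months. It stood at 53.8, 45.5 and 51.8 CPM at 3.0 months, at 50.7, 45.7 and 46.3 CPM at 4.5 months and at 38.5, 32.4 and 41.3 CPM at 6.0 months. The means went down at each age, from 58.8 ± 2.96 over 50.4 ± 4.30 and 47.6 ± 2.76 to 37.4 ± 4.57 CPM (SD, n = 3), and the oldest fish did not overlap with any other age. It fell by 0.65 ± 0.12 on the log2 scale from 1.5 to 6.0 months (adjusted p = 0.0223, edgeR) and by 0.14 ± 0.03 per month of age in the fit of a slope (adjusted p = 0.0304, edgeR). It was also the only member past the threshold when the 4 ages were tested together for any difference (adjusted p = 0.0489, edgeR), where 2.21% of all genes passed. In that joint test 11 members had an unadjusted p under 0.05, as did 22.9% of all genes, and DESeq2 called 7 members and 15.4% of all genes. The call of sdhaf4 in the joint test held with only replicate 2 at 3.0 months or replicate 1 at 4.5 months left out, and was lost without any other single library (adjusted p 0.0631 to 0.142, edgeR). Its slope call was lost without any library of 1.5 months and without replicate 1 or 2 at 6.0 months (0.0613 to 0.103). With replicate 2 at 6.0 months left out the log2 change was -0.56 and the adjusted p 0.0611 in edgeR, and the call was also lost without replicate 1 at 6.0 months (0.0618) and without replicate 1, 2 or 3 at 1.5 months (0.0688, 0.0646 and 0.103). Where these calls were lost, fewer of all genes passed too. The shares were 0.0331% to 1.27% in the joint test, against 2.21% with all 12 libraries. They were 0.0664% to 0.185% for the slope, against 1.17%. From 1.5 to 6.0 months they were 0.0379% to 0.328%, against 2.78%.

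The other factors of complex II did not pass. sdhaf1, which helps the iron-sulphur clusters into sdhb, had a log2 change of -0.34 ± 0.20, sdhaf3, with a related role, -0.33 ± 0.22, and sdhaf2, which attaches the flavin to sdha, -0.27 ± 0.31. sdhaf2 overlapped between the ages, at 35.7, 40.8 and 56.4 CPM at 1.5 months and 45, 20.1 and 45 CPM at 6.0 months, with only replicate 2 low among the oldest.

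Complex V, the ATP synthase, had the most negative median of the classes, -0.53 over its 10 subunits and atp5s, all 11 below 0, and -0.32 without replicate 2 at 6.0 months. None of them passed in edgeR's test, and 7 had an unadjusted p under 0.05, where 20.4% of all genes did. DESeq2, which called 9.22% of all genes, called atp5b and atp5g3. In the catalytic head, atp5b, the beta subunit that makes the ATP, stood at 2010, 1510 and 1740 CPM at 1.5 months, at 1500, 1310 and 1570 CPM at 3.0 months, at 1410, 1540 and 1410 CPM at 4.5 months and at 1250, 910 and 1250 CPM at 6.0 months. All 3 oldest fish lay below all 9 others, and the log2 change against 1.5 months was -0.63 ± 0.17 (adjusted p = 0.069, edgeR).

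The central stalk, which turns inside the head, held atp5c1, atp5d and atp5e. atp5d had a log2 change of -0.63 ± 0.27 and atp5c1 -0.54 ± 0.21, both without overlap. atp5e overlapped widely, at 62.9, 78.7 and 101 CPM at 1.5 months and 86.3, 33.5 and 101 CPM at 6.0 months, a log2 change of -0.14 ± 0.39, and 0.21 without replicate 2 at 6.0 months.

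The most negative change of all members was that of atp5g3, a gene for the ring subunit through which the protons pass. It stood at 624, 637 and 735 CPM at 1.5 months, at 635, 390 and 605 CPM at 3.0 months, at 658, 485 and 422 CPM at 4.5 months and at 467, 275 and 474 CPM at 6.0 months. The oldest fish were below the youngest, the middle ages spanned both, and the log2 change of -0.72 ± 0.25 did not pass (adjusted p = 0.141, edgeR). In the peripheral stalk, which holds the head still, atp5h, atp5j and atp5f1 had -0.55 ± 0.23, -0.53 ± 0.24 and -0.49 ± 0.19.

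The fourth subunit of that stalk, atp5o, varied more between fish than between ages. It had 235, 285 and 382 CPM at 1.5 months, 327, 148 and 355 CPM at 3.0 months, 336, 184 and 153 CPM at 4.5 months and 270, 108 and 294 CPM at 6.0 months. Its 4 low fish were the 4 libraries with low cytosolic ribosomal protein RNA, and its log2 change of -0.42 ± 0.43 was no larger than its error. From 1.5 to 4.5 months all 11 complex V genes were also below 0, where 46.7% of all genes were, with a median of -0.27. None of the 11 passed there in edgeR's test, at an unadjusted p under 0.05 or in DESeq2. Their centred medians were 0.18, 0.11 and 0.46 at 1.5 months. At 4.5 months they were 0.24 in replicate 1, and -0.03 and -0.27 in the libraries named Resub. Only the Resub libraries thus lay below all the youngest fish. Over all members the median log2 change from 1.5 to 4.5 months was -0.09, with 45 below 0. Without both Resub libraries it was 0.08, with 22 below 0. atp5s, known as coupling factor B, had -0.30 ± 0.17 from 1.5 to 6.0 months, without overlap.

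**Figure D5:**
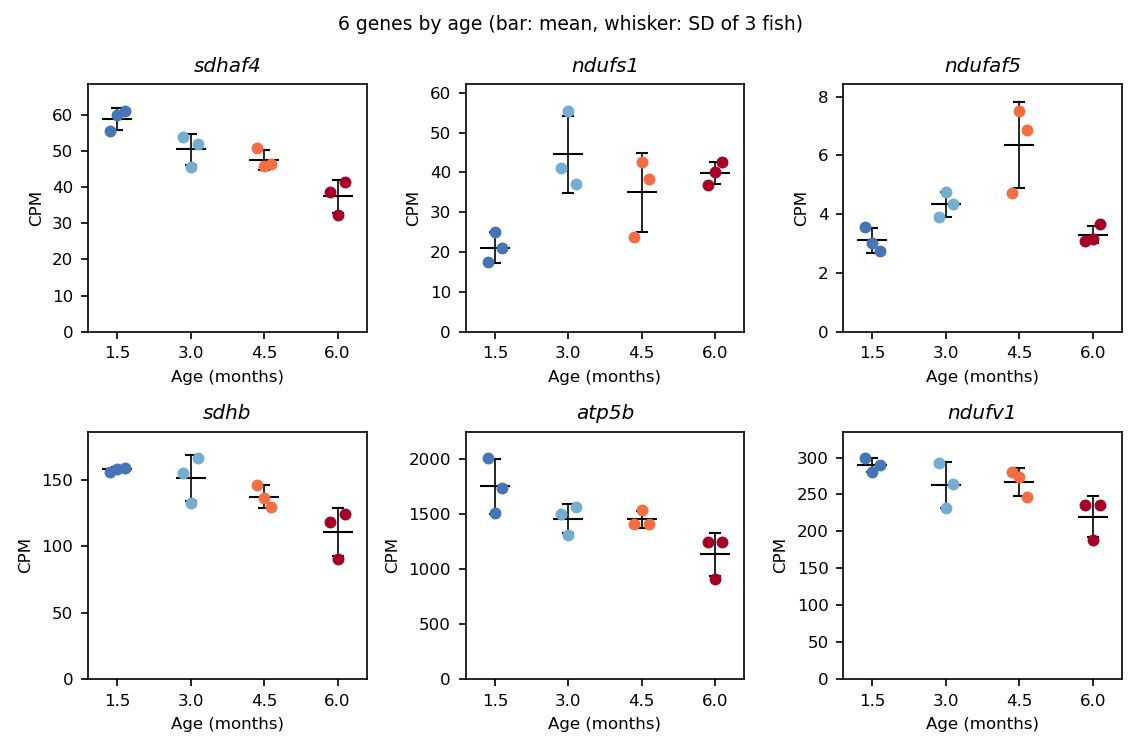
CPM (y axis, from 0) against age in months (x axis) for 6 of the genes, 1 point per fish, with the mean (bar) and SD (whisker) of 3 fish. sdhaf4, sdhb and atp5b are lowest in the 3 oldest fish, ndufs1 is lowest in the youngest, and ndufaf5 is highest at 4.5 months.

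The assembly factors of complex I, which help build it and then leave, had their highest levels at 4.5 months. Their median log2 change from 1.5 to 6.0 months was -0.16 over 8 genes, and none passed in edgeR's test, at an unadjusted p under 0.05, or in DESeq2. At 4.5 months the median over the 8 genes of log2 CPM centred on each gene's mean was 0.21, 0.25 and 0.25 in the 3 fish, against 0.05 or less in every other library. 7 of the 8 had a log2 change above 0 from 3.0 to 4.5 months, where 53% of all genes did, with a median of 0.28, and all 8 one below 0 from 4.5 to 6.0 months, with a median of -0.40. The medians of the 34 complex I subunits in these steps were 0.00 and -0.30, and the difference between factors and subunits was not tested. In replicate 1 at 4.5 months, the library without Resub in its name, the subunits' centred median was 0.27 beside 0.21 for the factors. In replicates 2 and 3 it was 0.05 and -0.15 beside 0.25 and 0.25, so within this age the factors stood above the subunits in the Resub libraries only. The course was not particular to these 8 genes. Outside the name rule, 34 assembly factors had medians of 0.08 and -0.25 in the same steps. A list of 14 genes for complexes III and IV and electron carriers had 0.14 and -0.33. The 4 assembly factors of complex II did not share the rise, with medians of -0.11 and -0.21. At 4.5 months the centred medians of the retina markers were 0.15, 0.47 and 0.31, with the highest mean of the 4 ages.

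ndufaf5, an enzyme that modifies the core subunit ndufs7 during assembly, changed most. It stood at 3.56, 3.02 and 2.75 CPM at 1.5 months, at 3.89, 4.75 and 4.36 CPM at 3.0 months, at 4.71, 7.51 and 6.87 CPM at 4.5 months and at 3.10, 3.17 and 3.66 CPM at 6.0 months. It rose by 1.03 ± 0.21 on the log2 scale from 1.5 to 4.5 months (adjusted p = 0.029, edgeR), the only member called in that comparison, where 3.03% of all genes were and 1.11% rose. At an unadjusted p under 0.05 there were 6 members and 22.2% of all genes. DESeq2 called ndufs1, atp5sl and ndufaf5 there, and 10.1% of all genes. The highest values were those of replicates 2 and 3 at 4.5 months, the libraries named Resub. Without both the log2 change was 0.59 (adjusted p = 0.482, edgeR), and without replicate 2 or 3 alone it was 0.90 (0.15) and 0.97 (0.121). Leaving out replicate 1, 2 or 3 at 1.5 months gave adjusted p of 0.0563, 0.107 and 0.107 in edgeR. Of all genes, 0.0331% and 0.0237% were called without replicate 2 or 3 at 4.5 months, against 3.03% with all 12 libraries. Without replicate 1, 2 or 3 at 1.5 months 0.787%, 0.0568% and 0.133% were. At 6.0 months it was back near the youngest level, and the step from 4.5 to 6.0 months, -0.94 ± 0.21, did not pass (adjusted p = 0.0573, edgeR).

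Similar courses were seen in other factors of complex I, without a call in edgeR's test. atp5sl, named after an ATP synthase gene but known in mammals as a factor for complex I, had 25.6, 23.9 and 25.8 CPM at 1.5 months, 30.5, 35.4 and 30.7 CPM at 4.5 months and 25.4, 20.9 and 23.4 CPM at 6.0 months. The 3 fish of 4.5 months lay above all others, and the log2 change from 4.5 to 6.0 months was -0.47 ± 0.11 (adjusted p = 0.0705, edgeR). ndufaf3, which acts on the quinone-binding module, had 17.0, 19.3 and 17.6 CPM at 4.5 months and 11.6, 10.5 and 14 CPM at 6.0 months, a log2 change of -0.58 ± 0.14 (adjusted p = 0.0715, edgeR). ndufaf6 averaged 7.50 ± 1.16 CPM at 4.5 months and 5.10 to 5.17 CPM at the other ages. ndufaf4, the partner of ndufaf3, had -0.28 ± 0.14 from 1.5 to 6.0 months, ndufaf2, a late-acting chaperone, -0.35 ± 0.17, and ndufaf7, a methyltransferase of the mitochondrion, -0.05 ± 0.14.

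Between neighbouring ages few members stood out in any step. From 1.5 to 3.0 months 45 of the 61 members had a log2 change below 0, where 51.6% of all genes did. Their median was -0.07 with TMM scaling and 0.04 with plain library totals, which shifted the median of all genes to 0.10. It was 0.09, with 16 below 0, without replicate 2 at 3.0 months and -0.18 without replicate 1 there. None passed in edgeR's test there (0.0193% of all genes did, and 2 members and 12.6% of all genes had an unadjusted p under 0.05), and DESeq2 called ndufs1, with 2.22% of all genes. From 3.0 to 4.5 months the median was -0.01. It ran from -0.16 to 0.09 with 1 library left out and was 0.16, with 9 of 61 members below 0, without both Resub libraries. None passed in edgeR or DESeq2, where 0.319% and 4.51% of all genes were called, and 3 members and 14.7% of all genes had an unadjusted p under 0.05; the 3 were ndufaf5, ndufaf6 and atp5sl.

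From 4.5 to 6.0 months the median was -0.31 and 58 of 61 members were below 0, where 49.4% of all genes were. None passed in edgeR's test, 12 had an unadjusted p under 0.05 (16.6% of all genes did), and 0.599% of all genes were called; DESeq2 called ndufaf3, atp5sl and ndufaf5, with 5.83% of all genes. For 18 members all 3 oldest fish lay below all 3 fish of 4.5 months, which held for 11.1% of all genes. Without replicate 2 at 6.0 months the median was -0.14. These steps share the fish of 3.0 and of 4.5 months and are not independent of each other.

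From 3.0 to 6.0 months the median was -0.29, with 60 of 61 members below 0, where 49.7% of all genes were. The median was -0.13, with 49 below 0, without replicate 2 at 6.0 months, and -0.46, with 31 members at an unadjusted p under 0.05, without replicate 2 at 3.0 months. The share of all genes at that unadjusted level without replicate 2 at 3.0 months was not computed. With all 12 libraries no member passed in edgeR's test or in DESeq2, and 5 had an unadjusted p under 0.05. In edgeR 0% of all genes passed (8.35% had an unadjusted p under 0.05), and in DESeq2 0.961%. The oldest fish lay below all fish of 3.0 months for 6 members, sdha, atp5b, ndufv2, sdhb, sdhaf4 and ndufaf5, which held for 6.36% of all genes. In the fit of a slope over age, 56 members had a slope below 0, where 49% of all genes did, with a median of -0.08 per month on the log2 scale, -0.04 without replicate 2 at 6.0 months and -0.05 with library totals. Only sdhaf4 passed in edgeR's test, falling, where 1.17% of all genes passed and 0.449% fell. At an unadjusted p under 0.05 there were 17 members and 17.2% of all genes, and DESeq2 called atp5b, sdhb and sdhaf4, with 5.5% of all genes. The members at that unadjusted level were 5 without replicate 2 at 6.0 months and 7 with library totals. The shares of all genes that belong to these 2 fits were not computed.

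Complexes III and IV, read through the entries that took their name from the reference, had medians near those of the members. The 8 entries of complex III had a median log2 change of -0.37 from 1.5 to 6.0 months, all 8 below 0, and the 16 of complex IV one of -0.38, 14 below 0. Without replicate 2 at 6.0 months these medians were -0.14 and -0.24. None of the 30 matched entries passed in edgeR's test, and 7 had an unadjusted p under 0.05, where 20.4% of all genes did. DESeq2, which called 9.22% of all genes, called 6: uqcrc1, uqcrc2b, cox6a1, cox6b2, cox7a2l and atp5fa1, all lower at 6.0 months. Replicate 2 at 6.0 months was the lowest library for 24 of the 30.

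In complex III, uqcrc1, a large core protein on the matrix side, came nearest to the threshold. It had 305, 235 and 268 CPM at 1.5 months, 260, 247 and 245 CPM at 3.0 months, 248, 277 and 251 CPM at 4.5 months and 195, 152 and 200 CPM at 6.0 months. All 3 oldest fish lay below all 9 others, with a log2 change against 1.5 months of -0.56 ± 0.14 (adjusted p = 0.0561, edgeR). Its partner exists as 2 entries, which differed in course: uqcrc2b had -0.46 ± 0.15 from 1.5 to 6.0 months, while uqcrc2a had -0.22 ± 0.13 and was highest at 4.5 months, at 52.7, 69.6 and 62.2 CPM. The 69.6 and 62.2 CPM were those of the libraries named Resub. How the authors counted reads shared by such paralogs is not given in the sources used here, so the split between them is uncertain. The small subunits uqcrq, uqcrh and uqcrb had -0.55 ± 0.19, -0.23 ± 0.20 and -0.16 ± 0.32.

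In complex IV, cytochrome c oxidase, both forms of subunit 4 were read in every library, cox4i1 with a log2 change of -0.55 ± 0.30 and cox4i2, induced by low oxygen in mammals, with -0.41 ± 0.31. cox6b2 had 200, 186 and 234 CPM at 1.5 months and 147, 95.4 and 154 CPM at 6.0 months, the most negative change among entries of this complex above 1 CPM, -0.64 ± 0.20 (adjusted p = 0.105, edgeR). cox6a1 had -0.59 ± 0.18 (adjusted p = 0.0962, edgeR), cox5aa -0.35 ± 0.18 and cox5b2 -0.28 ± 0.18. The forms that mammals use in muscle, cox6a2, cox7a1 and cox8b, averaged 0.308, 0.462 and 0.861 CPM over all libraries, beside the low sum of the skeletal muscle markers.

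ndufa4a, named after complex I but known in mammals as a complex IV gene, had -0.35 ± 0.21. ndufa4l2a, also counted with complex IV here, a placement that was not tested, had -0.45 ± 0.21. Both were without overlap between 1.5 and 6.0 months. cox7a2l, which helps complexes join into supercomplexes, had 116, 134 and 135 CPM at 1.5 months and 89.2, 49.3 and 90.7 CPM at 6.0 months, with no overlap and a log2 change of -0.75 ± 0.23 (adjusted p = 0.107, edgeR). In complex V, atp5fa1, the alpha subunit beside atp5b in the head, had -0.62 ± 0.16 (adjusted p = 0.0634, edgeR), and the inhibitor atp5if1b -0.24 ± 0.23.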

How the data were processed

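Per the labels, libraries were made with Nextera XT and read from both ends on 1 NovaSeq S4 lane. The authors deposited whole-number counts per gene, with no normalization; aligner, counter and genome build are not given in the sources used here, so no coordinates are printed, and whether counting used strand is not given either. Even numbers made up 73.16% of all counts between 1 and 20, as counting each mate of a pair would give. Of 14589 entries named by locus number, 5257 took a symbol from NfurGRZ-RIMD1.

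R 4.3.3 and edgeR 4.0.16 were used on these counts: filterByExpr (minimum count 10, minimum total 15; 20717 genes, 99.98% of counts), TMM, robust glmQLFit and glmQLFTest, with 1 fit of the 4 ages on all 12 libraries and 1 with age in months as a number. Benjamini-Hochberg adjustment ran over all genes tested, with a threshold of 0.05. The spread between fish of one age, as edgeR's common BCV, was 0.306 (8 residual degrees of freedom). Each SE was taken from the log2 change and its F statistic. An exact permutation test of 3 against 3 fish cannot give a p under 0.1. DESeq2 1.42.0 was an alternative. No 2 libraries differed by so little that they could be 1 library in duplicate (lowest chi-square per gene 13.3).

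Named genes were those past the threshold in any comparison; per complex the 2 largest rises and falls of 6.0 against 1.5 months at a mean of at least 10 CPM and the highest mean; and a fixed list of well-known subunits. Further genes named for a count or a course were chosen after their values were seen. The members and all lists were chosen with earlier results of these data known. Median summaries carry no test. Values of 1 member are not reported here, though it is in all counts. Replicate numbers were not taken to pair the fish. Alternatives were other scalings, filters and tests, halved counts, a replicate block and left-out libraries.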

Additional observations from a re-analysis of the deposited data

How the results depend on the processing

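The members' median log2 change kept its direction from 1.5 to 6.0 months under every alternative run, from -0.20 without replicate 2 at 6.0 months to -0.52 without the 3 libraries with lens RNA. These were replicate 2 at 1.5 months, replicate 1 at 4.5 months and replicate 1 at 6.0 months. Leaving them out kept replicate 2 at 6.0 months, where the members were lowest, and at 4.5 months only the Resub libraries. With plain library totals the members' median was -0.21, where that of all genes moved to 0.17. From 4.5 to 6.0 months the median of all genes moved to 0.13 and that of the members to -0.19. Counts of members called depended on the setting, and so did the share of all genes called, given in brackets. From 1.5 to 6.0 months, 2 members passed in the analysis reported (2.78%). With DESeq2's size factors 1 passed, sdhaf4 (2.72%). An alternative chosen after seeing the data, without both replicates 2 of 3.0 and 6.0 months, also called sdhaf4 only (1.24%). Without the lens libraries 0 members passed (0%), and with DESeq2's test 8 did (9.22%). For any difference among ages, 1 (2.21%) became 0 with library totals (2.46%), with no filter (1.6%) and without both replicates 2 (2.43%). It became 2 with a mean of at least 1 CPM (3.13%) or halved counts (2.75%), with ndufaf5 added, and 7 with DESeq2 (15.4%). DESeq2 gave 1 from 1.5 to 3.0 months (2.22%), 3 from 4.5 to 6.0 (5.83%), 3 from 1.5 to 4.5 (10.1%) and 3 for the slope (5.5%). Without the lens libraries 2 passed from 1.5 to 4.5 months (4.92%) and 0 for the slope (0.00478%). Leaving out 1 library at a time gave 0 to 2 from 1.5 to 6.0 months (0.0379% to 5.62%) and 0 to 3 for any difference (0.0331% to 11.5%). It gave 0 to 1 from 1.5 to 3.0 (0% to 0.93%) and 0 to 3 from 4.5 to 6.0 (0% to 5.4%). For 1.5 to 4.5 months it gave 0 to 2 (0.0237% to 13.5%) and for the slope 0 to 1 (0.0664% to 1.58%). The highest shares, all but that of the slope, came without replicate 1 at 4.5 months. Members below 0 from 1.5 to 6.0 months went from 59 to 55 with library totals and also without replicate 2 at 6.0 months. Among the genes chosen for naming, the changes from 1.5 to 6.0 months that turned sign, none of them called, were with library totals atp5e 0.02, atp5sl 0.06 and ndufaf7 0.12; without replicate 1 at 1.5 months cox6b1 -0.03; without replicate 3 there atp5e 0.05; without replicate 2 at 6.0 months ndufa1 0.09, uqcrb 0.11, atp5e 0.21 and ndufaf7 0.06; and without both replicates 2 the same but uqcrb 0.12. Over single left-out libraries ndufa1 ranged from -0.34 to 0.09, atp5e from -0.43 to 0.21, ndufaf7 from -0.14 to 0.06, uqcrb from -0.4 to 0.11 and cox6b1 from -0.03 to 0.46. The cause of these moves was not tested.

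Deviations of same-numbered fish correlated between -0.32 and 0.30 over 18 pairs, 8 of them above 0.1, as were 7 of 36 pairs with different numbers; not every same-numbered pair was above 0.1, so the numbers were not taken as a pairing. With the replicate number as a block, 2 members passed from 1.5 to 6.0 months (2.39% of all genes), 1 from 1.5 to 4.5 months (2.29%) and 1 for the slope (0.681%). For any difference ndufs1 passed in place of sdhaf4 (adjusted p = 0.0635, edgeR), where 1.03% of all genes passed. From 1.5 to 6.0 months the median was -0.40, and 32 members had an unadjusted p under 0.05, against 23 without the block. The share of all genes at that unadjusted level under the block was not computed.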

Other observations

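Genes of neighbouring steps outside the name rule were read through lists that were also chosen with earlier results known and carry no test. Whether the calls of single genes in these lists held with a library left out was not looked up. From 1.5 to 6.0 months 0.328% of all genes were called without replicate 2 at 6.0 months, against 2.78% with it. Of 28 genes listed for the tricarboxylic acid cycle and pyruvate entry, a list that also holds cytosolic malate dehydrogenase, 2 fell and 1 rose from 1.5 to 6.0 months in edgeR's test, where 1.02% and 1.75% of all genes did, and the median log2 change was -0.39. mdh1ab, a cytosolic malate dehydrogenase, went from 347 ± 58.5 to 145 ± 48.9 CPM (SD, n = 3) and fell by 1.26 ± 0.26 (adjusted p = 0.032, edgeR). mpc2, a subunit of the carrier that brings pyruvate into the mitochondrion, went from 85.1 ± 4.57 to 56.3 ± 9.47 CPM and fell by 0.59 ± 0.13 (adjusted p = 0.0408, edgeR). pdk4, a kinase that switches off pyruvate dehydrogenase, went from 24.7 ± 2.49 to 34.8 ± 3.01 CPM and rose by 0.50 ± 0.12 (adjusted p = 0.0495, edgeR). Citrate synthase (cs) had -0.45 ± 0.17 and did not pass.

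Of 32 genes of import and the inner membrane, 2 fell and none rose, where 1.02% and 1.75% of all genes did, with a median of -0.21. slc25a5, an exchanger of ADP for ATP across the inner membrane, went from 977 ± 37.8 to 519 ± 154 CPM and fell by 0.91 ± 0.20 (adjusted p = 0.0397, edgeR). timm21, of the inner membrane import machinery, went from 23.0 ± 1.07 to 15.2 ± 1.91 CPM and fell by 0.60 ± 0.12 (adjusted p = 0.0288, edgeR). Of 34 assembly factors outside the name rule, cox18, which inserts a complex IV subunit into the membrane, rose by 0.61 ± 0.13 (adjusted p = 0.0315, edgeR). The other 33 did not pass, and 1.75% of all genes rose. Another list shares cox10, cox11 and cox15 with the assembly factors. Its 14 tested genes cover cyc1, haem and copper supply to complex IV, electron transfer flavoprotein and ubiquinone synthesis. The listed genes of cytochrome c itself, cycs and cycsb, were not among those tested. The median was -0.24, with 13 below 0. cyc1, the cytochrome of complex III, had -0.41 ± 0.16 (adjusted p = 0.185, edgeR).

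Among 18 regulators of mitochondrial biogenesis the median was -0.11. gabpa, a transcription factor known in mammals to act on many nuclear genes for respiration, went from 19.6 ± 0.858 to 29.4 ± 4.33 CPM, a rise of 0.59 ± 0.12 (adjusted p = 0.0343, edgeR), and also rose from 1.5 to 4.5 months, by 0.53 (adjusted p = 0.0454, edgeR). The coactivator ppargc1a had -0.03 ± 0.12. The 2 tested genes of the uncoupling list had a median of -0.09.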
